A study of Sus scrofa with 14 samples.

Results

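The pyloric mucosa (PYL) of the weaned pig was described from 7 arrays, 1 for each of 7 pigs, out of the 14 arrays of the series. The arrays were chosen by their tissue label alone, and no contrast with the oxyntic arrays was made. All 7 animals were unrelated male crossbreds (Large White x Landrace), aged 5 to 6 weeks with a mean weight of 11.1 kg, individually caged, given a standard post-weaning feed for 5 days and sampled after the morning meal. No transgene or further treatment is named for them, and the anaesthetic and the lethal injection were common to them all. The tissue was a transmural piece of the stomach wall taken in the pyloric gland region near the sphincter, so muscle and nerve can be part of it. Total RNA was hybridized on whole-transcript porcine arrays, and the deposited intensities are given here as log2 values. Of 27460 transcript rows, 11982 carry a single gene symbol, and these make 10912 named genes, each represented by its row of highest mean.

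The pylorus closes the stomach toward the duodenum. Its glands are coiled mucous glands that hold G cells, which release gastrin (GAST) after a meal, and D cells, whose somatostatin (SST) restrains the G cells. The surface is lined by mucous cells, the polymeric immunoglobulin receptor (PIGR) carries antibodies across the epithelium, and claudins such as CLDN7 build the seals between its cells.

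The arrays form 2 sets, pigs 1 to 3 and pigs 4 to 7. The median log2 intensity over all rows was 4.89 to 4.92 in the former and 5.69 to 5.73 in the latter, and rounding to 2 decimals on the log2 scale was found in the former only. Levels of the sets were therefore not compared with each other, and a mean over 7 pigs mixes both scales. For variability and covariation the mean of its set was subtracted from every value. What remains is called a deviation, and its SD over both sets, with 5 degrees of freedom, is called the within-set SD.

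Pigs 4 and 7 stood apart from the others. Over the named genes, the rank correlation (Spearman) was 0.990 between pigs 4 and 7 and 0.992 between pigs 5 and 6, but 0.940 to 0.955 between the members of these pairs. Pigs 1 to 3 correlated at 0.973 to 0.978 with pigs 5 and 6 and at 0.931 to 0.950 with pigs 4 and 7. The first principal component held 72.3% of the within-set variance, with loadings of 0.54 and 0.45 for pigs 4 and 7 and -0.46 and -0.54 for pigs 5 and 6. The 4 arrays of the second set carried 84.1% of all squared deviations. Deviations of a set sum to 0, so high values in pigs 4 and 7 and low values in pigs 5 and 6 are a single pattern. Each result that rests on it is given with and without pigs 4 and 7.

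All 4 markers of the region were well above the median level of the named genes, 5.94. SST had a mean of 11.42 ± 0.68 (SD, n = 7) and was the 32nd of the 10912 named genes by signal. GAST had a mean of 10.56 ± 1.08 and was the 93rd, PIGR with 10.44 ± 0.55 was the 109th and CLDN7 with 9.12 ± 0.64 the 687th. The order is that of the array signal, since probes of different genes bind with different strength, and SST, GAST and PIGR cannot be ranked by molecules.

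GAST measured 11.47, 10.62 and 10.94 in pigs 1 to 3 and 8.85, 11.36, 11.43 and 9.27 in pigs 4 to 7. SST measured 11.81, 11.20 and 11.47 in the first set and 10.41, 12.10, 12.19 and 10.73 in the second. In the second set both hormones were lowest in pig 4, next in pig 7 and highest in pig 6. The highest value of GAST in that set was 5.98-fold above the lowest, and that of SST 3.43-fold.

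PIGR measured 9.94, 10.52 and 10.81 in pigs 1 to 3 and 9.73, 10.50, 11.36 and 10.23 in pigs 4 to 7. CLDN7 measured 8.80, 9.02 and 9.46, and then 8.63, 10.04, 9.67 and 8.21. PIGR and CLDN7 shared an order in the first set, with pig 1 lowest and pig 3 highest, which was not that of the hormones. In the second set PIGR was highest in pig 6 and CLDN7 in pig 5, while pigs 4 and 7 held the lowest values of both. The within-set SD was 1.09 for GAST, 0.74 for SST, 0.70 for CLDN7 and 0.60 for PIGR, against a median of 0.18 over all named genes.

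**Figure D1:**
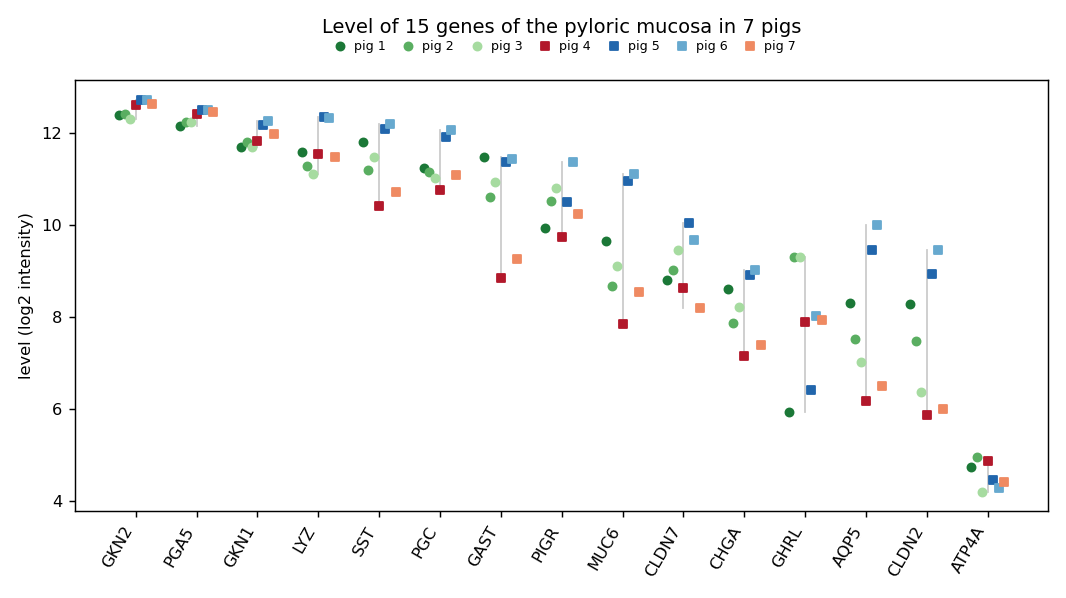
Levels (log2 intensity, vertical axis) of 15 genes, with 1 point per pig, circles for pigs 1 to 3 and squares for pigs 4 to 7. The grey line spans the 7 values. GKN2 and PGA5 lie close together in all pigs, GAST, MUC6, AQP5 and CLDN2 are lower in pigs 4 and 7 than in pigs 5 and 6, GHRL is lowest in pigs 1 and 5 within their sets, and ATP4A stays at 4.97 or lower.

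Secreted stomach proteins stood among the 30 genes of highest signal. They were the gastrokines GKN2 (12.54) and GKN1 (11.92), made by surface mucous cells, the pepsinogen PGA5 (12.36), the vitamin B12 carrier TCN1 (11.70), lysozyme (LYZ, 11.67) and chymosin (CYM, 11.63), which clots milk. Intrinsic factor (GIF, 11.44) followed as the 31st. The membrane protein TSPAN1 (12.02) and the gastric claudin CLDN18 (11.51) were also among the 30. None of these 30 genes had a within-set SD of 0.5 or more, a size that 11.1% of all named genes reached, with 1.84% at 1 or more.

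The rest of the 30 were of several kinds. Mitochondrially encoded subunits were COX1 (12.17), ND5 (12.10), COX2 (11.88), ND1 (11.74), ND3 (11.72) and CYTB (11.67). Matrix genes were COL1A1 (12.09), a collagen chain, and SPARC (11.47). ACTB (12.07), EEF1A1 (12.03), RPS10 (11.83), SSR2 (11.80), B2M (11.64), TMSB4X (11.64), RPL8 (11.63), CALR (11.57), LOC100154873 (11.56), FTL (11.50), TMSB10 (11.49) and HSPA8 (11.44) completed the group. The rows named TBCB (12.65) and SLC2A2 (12.27) were the first and the fourth by signal, and their identifiers lie directly before those of the mitochondrial genes in the annotation. Other rows of the same symbols averaged 6.95 and 5.75, so the levels of these 2 genes are uncertain. The lowest rows of EEF1A1, LYZ and COL1A1 averaged 2.98, 6.22 and 8.16, so their levels also depend on the row taken. Those of TSPAN1, B2M, TMSB4X, RPL8, SPARC and HSPA8 averaged 10.67 or higher.

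The markers of neighbouring cell types were mostly low. Of the 13 measured parietal cell genes the median level was 4.20. The proton pump subunits ATP4A and ATP4B, which secrete acid, averaged 4.57 and 5.71, and the exceptions were EZR (10.67), which links membranes to actin in many epithelia, and the sodium-proton exchanger SLC9A4 (8.46). The 20 genes of intestinal epithelium had a median of 4.29 but reached 8.97 for VIL1, the villin of brush borders. In the pancreatic acinar list 7 of 9 genes were at or below 4.56, while the elastase CELA1 averaged 8.61 and the lipase PNLIPRP2 8.36. Of 5 chief cell genes, the pepsinogens PGA5 and PGC (11.32), GIF and XBP1 (9.50) were high and BHLHA15 was at 4.89.

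Smooth muscle was well represented, with a median of 9.57 over 12 measured genes. CNN1, a calponin of contractile muscle, measured 10.36, 10.07 and 10.34 in pigs 1 to 3 and 12.10, 10.06, 9.72 and 12.01 in pigs 4 to 7. All 12 genes were above the set mean in pig 4 and 11 in pig 7, against 45% and 46.2% of all named genes. Their median deviation was 1.07 in pig 4, -0.85 in pig 5, -1.23 in pig 6 and 1.02 in pig 7. TPM1, TAGLN, MYLK and PDLIM3, all of the contractile or anchoring apparatus, followed CNN1, with within-set SDs of 0.70 to 1.50. ACTA2, the smooth muscle actin, did not, at 10.94, 10.96, 10.78 and 10.07 in pigs 4 to 7. The median within-set SD of the list was 0.93, and 0.19 without pigs 4 and 7.

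Epithelial and endocrine genes lay the opposite way. The median deviation of the endocrine list (25 genes) was -0.67, 0.62, 0.68 and -0.72 in pigs 4 to 7, that of the gland mucous list (11 genes) -0.69, 0.47, 0.81 and -0.49, and that of the keratin and adhesion list (13 genes) -0.53, 0.53, 0.36 and -0.49. The genes of endothelium (10 genes) differed little, with medians between -0.18 and 0.18. In an RNA extract of whole tissue, fewer cells of a type cannot be told apart from less RNA in each cell. The part of the muscle RNA in the pattern of pigs 4 and 7 was not tested.

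**Figure D2:**
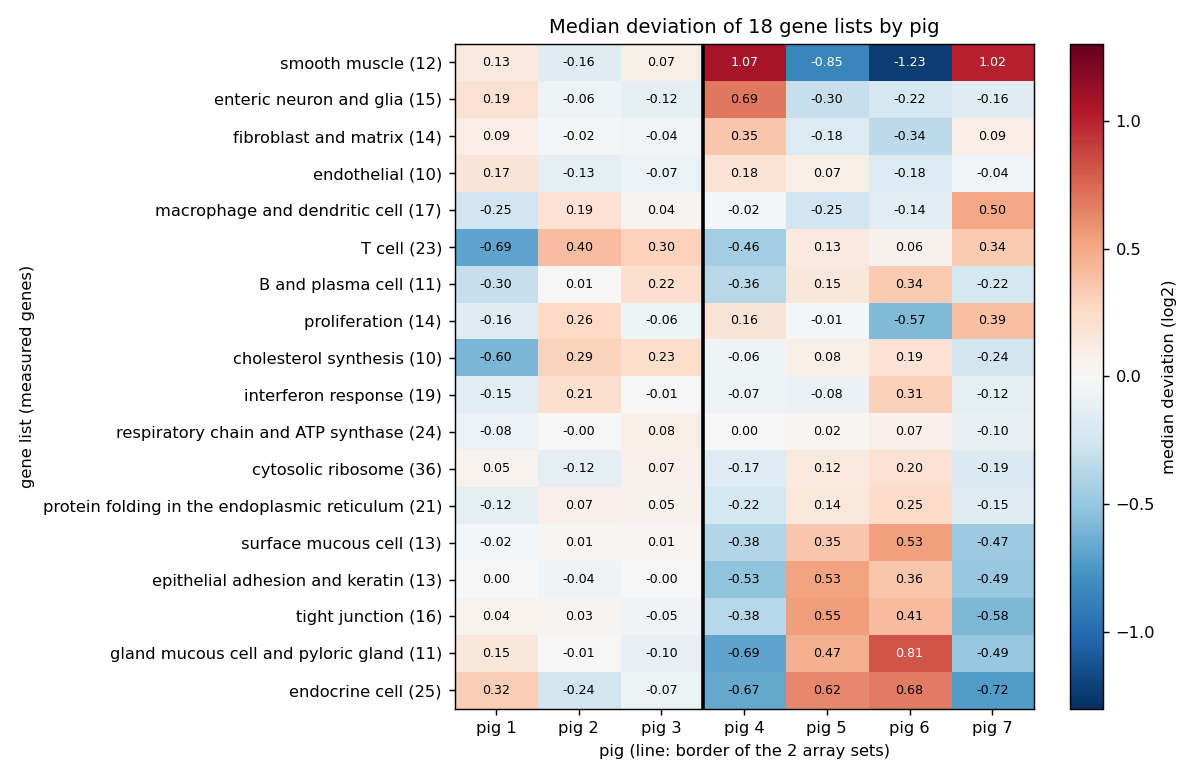
Median deviation from the set mean (log2, color and printed number) of 18 gene lists (rows, with the number of measured genes) in 7 pigs (columns). The smooth muscle list reads 1.07 and 1.02 in pigs 4 and 7 where the endocrine list reads -0.67 and -0.72, and in pig 1 the T cell and cholesterol synthesis lists read -0.69 and -0.60.

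Of the named genes, 201 had a within-set SD of 1 or more. In 155 of them the highest deviation was in pig 4 or 7, in 38 it was in pig 5 or 6, and in 8 it was in pig 1, 2 or 3. The count was 21 without pigs 4 and 7, of which 18 were among the 201. The 20 genes of highest within-set SD lay between 1.81 and 2.93, with the next gene at 1.79.

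Among these 20, 17 had their highest deviation in pig 4 or 7, and several are known from nerve or muscle. The list of enteric neurons and glia as a whole was not high in pig 7, with a median deviation of -0.16. There 6 of 15 genes were above the set mean, against 46.2% of all named genes. VSNL1, a neuronal calcium sensor, led with 9.71 and 9.97 in pigs 4 and 7 and 3.51 and 3.55 in pigs 5 and 6. It measured 5.85, 3.68 and 3.66 in pigs 1 to 3. GABRG1 (2.85), CARTPT (2.58), HAND2 (2.14), CNTNAP2 (1.89) and CNTN4 (1.84), given with their within-set SDs, are a receptor subunit, a peptide, a transcription factor and a pair of adhesion molecules of neurons. Of muscle were SMYD1 (2.24), TACR2 (2.16), the receptor by which neurokinin contracts the gut, CASQ2 (1.98), the microRNA gene MIR145 (1.88) and dystrophin (DMD, 1.84). EPHA7, SLIT2, RASL11B, OLFML2B and SOSTDC1 were also high in both pigs of this pair, with pigs 4 and 7 at 8.91 or higher and pigs 5 and 6 at 6.17 or lower.

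IL1RL1, the receptor of interleukin 33 that stood in the mast cell list, was among these 20 with 9.43 and 9.51 in pigs 4 and 7 and 4.76 and 5.16 in pigs 5 and 6. The mast cell genes KIT (within-set SD 0.16) and MS4A2 (0.13) did not share its spread. The 3 genes with another order were BPIFA1, a secreted defense protein with 9.79 and 9.48 in pigs 5 and 6 and 5.09 and 5.32 in pigs 4 and 7, the protease inhibitor SERPINA1, and UQCR10, a subunit of respiratory complex III. UQCR10 was at 7.99 in pig 1 against 4.02 and 4.64 in pigs 2 and 3, and at 8.30 and 8.42 in pigs 4 and 6 against 4.41 and 4.79 in pigs 5 and 7, a split that followed neither the sets nor the muscle genes.

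**Figure D3:**
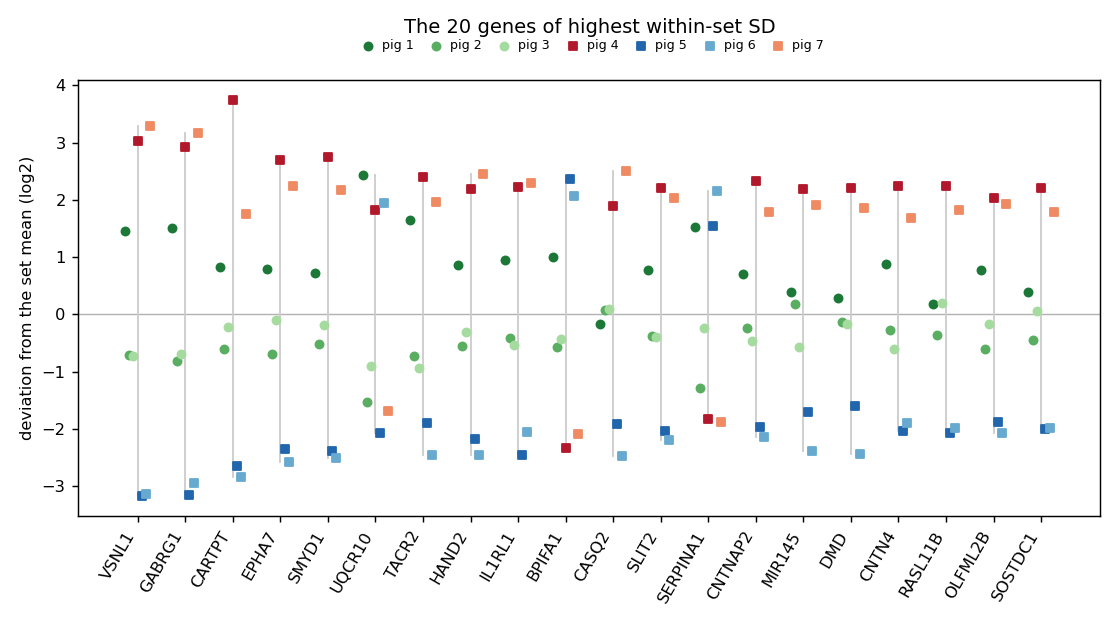
Deviations from the set mean (log2, vertical axis) of the 20 genes of highest within-set SD in 7 pigs, circles for pigs 1 to 3 and squares for pigs 4 to 7. Pigs 4 and 7 lie on top for 17 genes, and BPIFA1, SERPINA1 and UQCR10 have other orders.

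The endocrine genes were among the most variable lists apart from muscle. Of 25 measured genes, 17 had a within-set SD of 0.5 or more and 7 of 1 or more, against 11.1% and 1.84% of all named genes. In the 5 other pigs, without pigs 4 and 7, 6 of 25 reached 0.5, against 2.55% (0.192% reached 1). The median within-list correlation of deviations was 0.67, against 0.00 over all pairs of named genes, and 0.39 without pigs 4 and 7.

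CHGA, the granule protein chromogranin A, measured 8.61, 7.87 and 8.23 in pigs 1 to 3 and 7.16, 8.92, 9.02 and 7.39 in pigs 4 to 7. SCGN (secretagogin), which binds calcium in endocrine cells, measured 7.19, 5.64 and 6.07 and then 4.49, 7.46, 7.72 and 4.63. In both genes pig 1 was highest in the first set and pigs 5 and 6 in the second. The convertases PCSK2 and PCSK1, which cut prohormones, had within-set SDs of 1.09 and 0.99, and both were higher in pig 5 than in pig 6.

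Ghrelin (GHRL), the appetite hormone, had an order of its own. It measured 5.93, 9.30 and 9.30 in pigs 1 to 3 and 7.90, 6.43, 8.01 and 7.93 in pigs 4 to 7. Within their sets the lowest values were in pig 1 and pig 5, and pigs 4 and 7 lay close to pig 6. Its within-set SD was 1.36 with all pigs and 1.72 without pigs 4 and 7. The parietal cell genes ATP4B, SLC9A4 and HRH2, of the acid-secreting region where ghrelin cells are frequent, were also lowest in pig 1 within the first set, at 5.02, 7.31 and 4.73, but highest in pig 2 alone, at 5.95, 9.07 and 5.66. Over all 13 parietal cell genes, most of them of low signal, the median deviation was 0.05, 0.03 and -0.09 in pigs 1 to 3. Their part in the order of GHRL was not tested. PYY, a hormone of the lower gut, measured 8.85 and 10.04 in pigs 5 and 6, 6.08 and 5.96 in pigs 4 and 7 and 5.23 to 6.52 in pigs 1 to 3, with a within-set SD of 1.64.

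The genes that control gastrin release had mixed patterns. The somatostatin receptor SSTR1 measured 7.05, 6.24 and 6.39 in pigs 1 to 3 and 5.57, 7.35, 7.48 and 5.38 in pigs 4 to 7, which is the order of GAST except that pig 7 was lowest. VIPR2, the receptor of vasoactive intestinal peptide found on smooth muscle, was high where muscle was high, with 7.95 and 7.21 in pigs 4 and 7 and 5.12 and 5.08 in pigs 5 and 6. MEN1, a nuclear repressor of the gastrin gene, had a mean of 7.44 and a within-set SD of 0.17. The other genes of highest signal in this list were CALCRL (7.16) and the PACAP receptor ADCYAP1R1 (6.95), of which the latter was at 8.35 and 8.24 in pigs 4 and 7 and at 6.68 and 6.66 in pigs 5 and 6.

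Covariation was measured for 28 gene pairs, chosen with earlier results of these data known, and p is a two-sided exact permutation p within the sets (144 arrangements, smallest p 0.0069), adjusted over the 28 pairs by the Benjamini-Hochberg method. Because 2 arrays stood apart, each correlation over 7 pigs is given with that of the other 5 pigs, for which the smallest p is 0.083 and no test is given. In these 5 pigs the deviations of pigs 5 and 6 are always equal and opposite. For genes nearly level in pigs 5 and 6, such as GAST (11.36 and 11.43), r then rests mostly on pigs 1 to 3 and is a weak check. SST followed GAST with r = 0.9994 (rho = 1.00, exact p = 0.0069, adjusted p = 0.039), and r = 0.994 without pigs 4 and 7. The pairs GAST and CHGA (r = 0.998), SST and CHGA (0.999) and GAST and SCGN (0.989) had the same exact and adjusted p, with r of 0.991, 0.999 and 0.991 without pigs 4 and 7. By rank correlation the exact p was 0.014 for each of these pairs and 0.078 after adjustment. Their rho of 1.00 is the highest possible, so no smaller p could be reached on ranks. That they did not pass on ranks therefore decides nothing. When the 2 pigs farthest from the median of the first gene (pigs 4 and 6) were left out, r of the 4 pairs was 0.991 to 0.999. These values place CHGA, SCGN and both hormones in the same order of pigs inside each set. The 4 pairs share genes and this order, so they are not independent results.

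GAST and PCSK1 had r = 0.98 (rho = 0.93, exact p = 0.049, adjusted p = 0.17) and 0.93 without pigs 4 and 7. GAST and GHRL had r = -0.42 (rho = -0.13, exact p = 0.25, adjusted p = 0.34), and SST and GHRL -0.41 (rho = -0.13) with the same p. Without pigs 4 and 7 the r values were -0.83 and -0.76, which were not tested. Over 7 pigs neither pair passed.

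**Figure D4:**
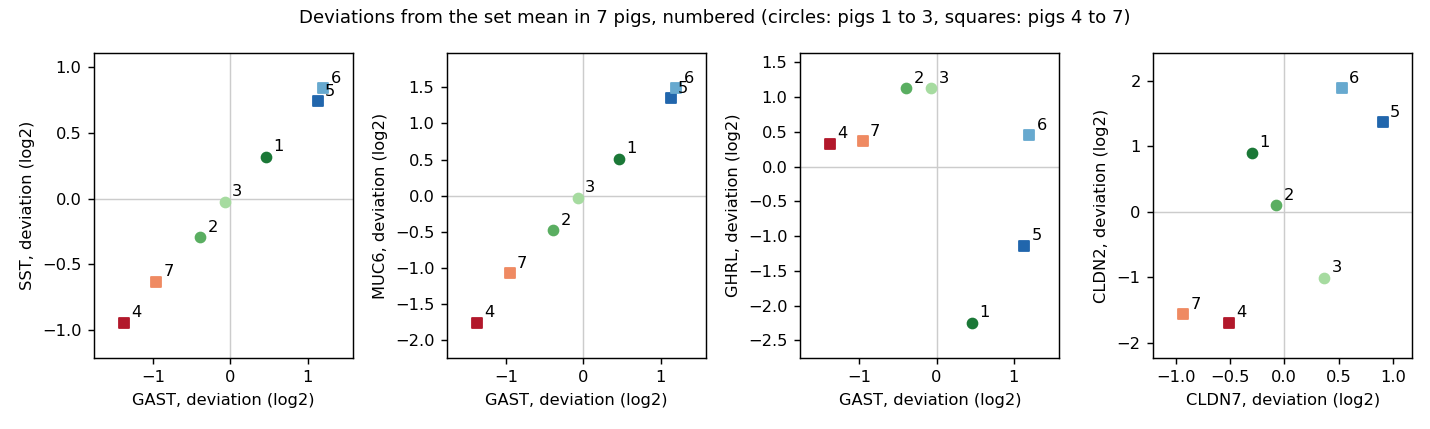
Deviations from the set mean (log2, both axes) of 4 gene pairs in 7 numbered pigs, circles for pigs 1 to 3 and squares for pigs 4 to 7. SST and MUC6 lie on a line with GAST in both sets, GHRL does not, and CLDN2 falls as CLDN7 grows in pigs 1 to 3 while both are lowest in pigs 4 and 7.

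The genes whose deviations were most like those of GAST were sought among 1855 genes with a mean above the median and a within-set SD of at least 0.3, as a description without a test. SST came first, followed by MUC6 (r = 0.999), the mucin of the gland mucous cell, CHGA (0.998), MYCL (0.997), ABCA6 (0.997), MCTP2 (0.996), UBL5 (0.996) and PCSK2 (0.996). These 8 genes kept r of 0.947 or more without pigs 4 and 7. The most opposed were KLF8 (-0.996), LMO3 (-0.996), FGFR1 (-0.992) and PIK3R1 (-0.991), with -0.893 to -0.978 without pigs 4 and 7. For SST the same genes other than itself led, with GAST first, and ARHGAP10 (-0.990) took the place of FGFR1.

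In all, 430 of the 1855 genes had r of 0.9 or more with GAST, and only 56 of those also had it without pigs 4 and 7. With CNN1, the muscle gene, GAST had r = -0.93 over 7 pigs and 0.50 without pigs 4 and 7. With the epithelial adhesion gene EPCAM it had 0.96 and 0.02. EPCAM spanned only 0.04 in pigs 1 to 3, so its value in the 5 pigs says little.

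MUC6 measured 9.66, 8.67 and 9.12 in pigs 1 to 3 and 7.86, 10.97, 11.10 and 8.54 in pigs 4 to 7, and the highest value of the second set was 9.47-fold above the lowest. In the gland list, 6 of 11 genes had a within-set SD of 0.5 or more, against 11.1% of all named genes, and 2 of 11 without pigs 4 and 7, against 2.55%. The water channel AQP5 had the highest, 1.58, with 8.31, 7.53 and 7.02 in pigs 1 to 3 and 6.18, 9.45, 10.01 and 6.50 in pigs 4 to 7. LYZ and GIF, also of this list, had 0.40 and 0.50, and PGA5 only 0.04. GIF and the pepsinogen PGC shared their order, with r = 0.998 (rho = 1.00, exact p = 0.0069, adjusted p = 0.039) and 0.98 without pigs 4 and 7. PGC and PGA5 shared theirs in pigs 4 to 7 (r = 0.98) but not in pigs 1 to 3, where PGA5 measured 12.16, 12.24 and 12.23. Over 7 pigs they had r = 0.66 (rho = 0.71, exact p = 0.17, adjusted p = 0.30), and -0.51 without pigs 4 and 7. PGA5 spanned only 0.08 in pigs 1 to 3, so the negative value says little. With quantile normalization r over 7 pigs was 0.89.

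The surface mucous genes had a lower median within-set SD than those of the glands, 0.41 against 0.59. Of 13 genes, 6 had a within-set SD of 0.5 or more, close to the 6 of 11 in the gland list, against 11.1% of all named genes. None reached 1 (1.84% of all named genes), and without pigs 4 and 7 none reached 0.5, against 2.55%. GKN2, TSPAN1 and GKN1 had 0.06, 0.15 and 0.16. Their means of 12.54, 12.02 and 11.92 lay near the highest value of any row on an array, 12.56 to 12.93. So did that of PGA5 (12.36), the steady gene of the gland list. The lists were not compared at equal signal. The mucin-building enzyme GCNT3 (0.78) and the protease CAPN9 (0.66) had the highest. In pig 5, 12 of the 13 genes were above the set mean and in pig 7 none, against 52% and 46.2% of all named genes. GKN1 and GKN2 had r = 0.81 (rho = 0.85, exact p = 0.069, adjusted p = 0.19) and 0.54 without pigs 4 and 7. GKN1 and the membrane mucin MUC1 had 0.91 (rho = 0.95, exact p = 0.11, adjusted p = 0.24) and 0.99. Neither pair passed.

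Claudins differed among themselves. CLDN18, the main gastric claudin, had a within-set SD of 0.26, CLDN7 0.70 and CLDN2, which forms pores for cations, 1.59. CLDN2 measured 8.28, 7.48 and 6.37 in pigs 1 to 3 and 5.88, 8.94, 9.46 and 6.01 in pigs 4 to 7. Between CLDN7 and CLDN2, r was 0.70 over 7 pigs (rho = 0.79, exact p = 0.33, adjusted p = 0.37) but -0.97 without pigs 4 and 7. Of the 16 tight junction genes 8 had a within-set SD of 0.5 or more, against 11.1% of all named genes. Only CLDN2 had it without pigs 4 and 7, against 2.55%. The scaffold TJP1, with 0.14, and occludin (OCLN), with 0.67, mark the range of the ubiquitous members.

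CLDN7 was most like ELOVL1 (r = 0.987), the glutathione transferase GSTA1 (0.985), MRPS35 (0.979), MFSD2A (0.979), ASL (0.978), GDPD2 (0.977), TMEM79 (0.976) and SLC9A3R2 (0.974). GSTA1 measured 9.45, 9.77 and 10.41 in pigs 1 to 3 and 8.37, 10.72, 9.96 and 6.90 in pigs 4 to 7. GABBR1 (-0.995), DHX35 (-0.991), the growth-arrest gene BTG2 (-0.988) and PBX3 (-0.984) were most opposed. These 12 correlations kept their sign without pigs 4 and 7, at 0.818 or more and at -0.937 or less. CLDN7 was close to EPCAM over 7 pigs (r = 0.87, rho = 0.82, exact p = 0.31, adjusted p = 0.36) and to CLDN18 (r = 0.89, rho = 0.89, exact p = 0.17, adjusted p = 0.30), but without pigs 4 and 7 the values were -0.57 and -0.22. EPCAM and CLDN18 (range 0.11) varied little in pigs 1 to 3, so these negative values say little.

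Keratins had high signal, with KRT19 at 11.14, KRT8 at 10.87 and KRT20 at 10.19, together with the junction protein JUP at 10.01. KRT18, the partner of KRT8, had the highest within-set SD of this list (0.88), followed by CDH17 (0.83), a cadherin of intestinal-type epithelium. CDH17 measured 7.27, 8.05 and 8.63 in pigs 1 to 3 and 6.71, 8.48, 7.53 and 6.46 in pigs 4 to 7, the order of CLDN7 in each set. EPCAM differed by 0.04 among pigs 1 to 3 and by 1.53 among pigs 4 to 7.

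PIGR followed the hormones less closely than they followed each other. With GAST it had r = 0.63 (rho = 0.61, exact p = 0.26, adjusted p = 0.34) over 7 pigs and -0.48 without pigs 4 and 7, and with SST 0.64 (rho = 0.61) and -0.39. In pigs 4 to 7 alone r was 0.84 with GAST and 0.86 with SST. With CLDN7, PIGR had 0.65 (rho = 0.68, exact p = 0.22, adjusted p = 0.34) over 7 pigs and 0.24 without pigs 4 and 7. Its relation to LYZ (r = 0.46, rho = 0.39) and to the B cell receptor gene CD79A (r = 0.46, rho = 0.39) had exact p of 0.51 and 0.38 and r of -0.75 and -0.26 without pigs 4 and 7. None of these pairs passed. With the rows of each gene averaged instead of its highest row taken, PIGR and CD79A had r = 0.92 and passed (exact permutation, adjusted p = 0.032).

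Genes most like PIGR were NBEAL2 (r = 0.998), the immunoproteasome subunit PSMB8 (0.985), DNM2 (0.976), CDK2AP2 (0.975), C15H2orf66 (0.973), ATP13A2 (0.970), ADCY3 (0.970) and LOC100737531 (0.967). PSMB8 measured 6.79, 7.07 and 7.41 in pigs 1 to 3 and 6.40, 6.77, 7.49 and 6.70 in pigs 4 to 7. Most opposed were VLDLR (-0.979), FGF10 (-0.975), a growth factor of mesenchyme, ZNF583 (-0.974) and the matrix protein TNC (-0.970). Of 65 genes with r of 0.9 or more, 47 also had it without pigs 4 and 7, a larger share than the 56 of 430 for GAST, so that pigs 4 and 7 weighed less on the likeness of PIGR.

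T cell genes set pig 1 apart. Of 23 measured genes, 21 were below the set mean in pig 1, where 51.5% of all named genes were above it, and the median deviation was -0.69 in pig 1, 0.40 in pig 2 and 0.30 in pig 3. CD2, an adhesion molecule of T cells, measured 7.80, 8.74 and 8.75 in pigs 1 to 3 and 8.95, 9.14, 9.35 and 9.72 in pigs 4 to 7. In pig 4, 21 of the 23 were also below the set mean, where 45% of all named genes were above it, with a median deviation of -0.46. In pig 7, 17 of the 23 were above the set mean, against 46.2% of all named genes, with a median deviation of 0.34. Muscle genes were high in both of these pigs. The granzymes GZMA (6.02, 7.93 and 7.70) and GZMK (4.32, 5.63 and 5.12) of cytotoxic cells were also lowest in pig 1 within the first set. Of the 23 genes 14 had a within-set SD of 0.5 or more, both with and without pigs 4 and 7, against 11.1% and 2.55% of all named genes. CD3E, a chain of the T cell receptor complex, and CD2 had r = 0.94 (rho = 0.86, exact p = 0.028, adjusted p = 0.13) and 0.96 without pigs 4 and 7, and 0.66 without pigs 1 and 4, the farthest from the median of CD3E, and after adjustment the pair did not pass.

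CTLA4, an inhibitory receptor of T cells, had an order of its own in this list, with 6.76 and 6.14 in pigs 4 and 7, 4.40 and 4.19 in pigs 5 and 6 and 2.88 to 3.31 in pigs 1 to 3.

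In the B and plasma cell list (11 genes) CD79A had a mean of 9.83 and a within-set SD of 0.23. All 11 genes were above the set mean in pig 3, against 49.7% of all named genes, and none in pig 4, against 45%. The macrophage and dendritic cell list (17 genes) was highest in pig 7, with a median deviation of 0.50. There all 17 were above the set mean, against 46.2% of all named genes. C1QB, a chain of complement, led this list with 10.24 and measured 11.02 in pig 7, against 10.47, 10.03 and 10.44 in pigs 4 to 6. TYROBP and FCER1G, signaling adaptors of myeloid cells, had r = 0.84 (rho = 0.82, exact p = 0.042, adjusted p = 0.17) and 0.60 without pigs 4 and 7. Antigen presentation genes were high in signal, with B2M at 11.64 and SLA-DRA at 11.22, and their median within-set SD of 0.19 was near that of all named genes. Of 12 genes none was above the set mean in pig 1, 11 were in each of pigs 2 and 3, and 1 was in pig 4. The shares of all named genes in pigs 1 to 4 were 51.5%, 47.7%, 49.7% and 45%.

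Pig 1 was also low in genes of cholesterol synthesis. Of 10 measured genes 9 were below the set mean in pig 1, with a median deviation of -0.60, where 51.5% of all named genes were above it. All 10 were above it in pig 2, against 47.7%. HMGCS1, which makes the first committed precursor, measured 6.97, 8.43 and 8.50 in pigs 1 to 3 and 7.96, 7.95, 8.04 and 7.57 in pigs 4 to 7. SQLE measured 7.13, 8.77 and 8.57 and then 7.93, 7.90, 7.86 and 7.72. For both enzymes pig 1 lay more than 1 below the other pigs of its set, while pigs 4 to 6 were nearly level.

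Proliferation genes were lowest in pig 6. None of 14 was above the set mean in pigs 1 and 6, against 51.5% and 53.7% of all named genes. All 14 were in pig 2, against 47.7%, and 13 in each of pigs 4 and 7, against 45% and 46.2%. CCNA2, a cyclin of dividing cells, measured 7.76, 7.49, 6.87 and 8.29 in pigs 4 to 7, and the median deviation of the list in pig 6 was -0.57. ANLN, needed to part dividing cells, had the highest within-set SD (0.55), with 8.39 in pig 4.

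**Figure D5:**
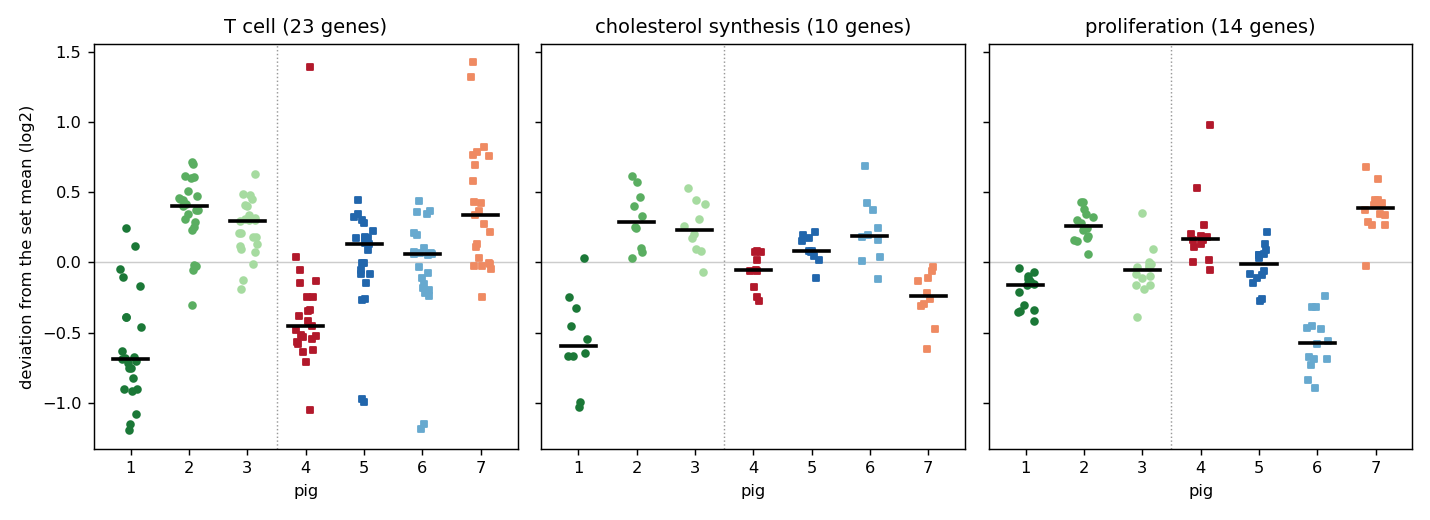
Deviations from the set mean (log2, vertical axis) of the genes of 3 lists in 7 pigs (horizontal axis), 1 point per gene, with the median as a black bar and the border of the array sets as a dotted line. T cell and cholesterol synthesis genes lie low in pig 1 (medians -0.69 and -0.60), and proliferation genes lie low in pig 6 (median -0.57).

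Nerve genes were high in pig 4. Of 15 genes of enteric neurons and glia, 14 were above the set mean in pig 4, against 45% of all named genes, with a median deviation of 0.69, and 6 in pig 7, against 46.2%. In the first set 14 of 15 were above the set mean in pig 1, against 51.5%, with a smaller median deviation of 0.19. VIP, the neuropeptide that relaxes gut muscle, measured 4.72, 3.42 and 3.54 in pigs 1 to 3 and 8.62, 4.32, 4.65 and 6.59 in pigs 4 to 7. UCHL1, a marker of neuron bodies, measured 7.23 in pig 4 and 4.11, 4.31 and 4.98 in pigs 5 to 7. KIT (8.06) and ANO1 (7.96), which mark the pacemaker cells of the gut, had within-set SDs of 0.16 and 0.20, so they did not take part in this pattern.

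Matrix genes differed less. All 14 were above the set mean in pig 4 and 13 in pig 7, against 45% and 46.2% of all named genes. A within-set SD of 0.5 or more was found in 4 of them, against 11.1%. COL3A1 measured 9.63, 9.48 and 9.43 in pigs 1 to 3 and 11.17, 10.57, 10.10 and 10.71 in pigs 4 to 7. It had r = 0.93 with COL1A1 (rho = 0.61, exact p = 0.076, adjusted p = 0.19), and r was 0.42 without pigs 4 and 6 and 0.77 without pigs 4 and 7. THY1 (0.60) and BGN (0.58) had the highest within-set SDs of the list.

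Among the patterning factors 13 of 23 had a within-set SD of 0.5 or more, against 11.1% of all named genes, and 1 of 23 without pigs 4 and 7, against 2.55%. KLF5 (10.30) and GATA6 (10.15), factors of gut epithelium, led by signal and were lowest in pigs 4 and 7. BARX1, which patterns the stomach from its mesenchyme, measured 9.81 and 9.51 in pigs 4 and 7 and 7.42 and 7.27 in pigs 5 and 6, and HOXA5 6.90 and 6.38 against 4.40 and 4.25. The list thus held members of both directions, and its median within-list r was 0.12. MEIS2 (9.10) and the foregut factor SOX21 had r = 0.18 (rho = 0.11, exact p = 0.83) and -0.79 without pigs 4 and 7.

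Of the 23 detoxification genes 14 had a within-set SD of 0.5 or more, against 11.1% of all named genes, and 4 without pigs 4 and 7, against 2.55%. UGT1A6 (11.18), a glucuronosyltransferase, NQO1 (10.35), EPHX1 (9.69) and MGST3 (9.55) led by signal. GSTA1 (1.35) and FMO1 (0.89) had the highest within-set SDs, FMO1 with 7.91 and 7.30 in pigs 4 and 7 and 5.80 and 5.57 in pigs 5 and 6. AKR1C1, a reductase of steroids, measured 8.79, 8.05 and 9.16 in pigs 1 to 3 and 5.99, 8.03, 8.31 and 7.34 in pigs 4 to 7. With CDO1, which degrades cysteine, it had r = 0.75 (rho = 0.82, exact p = 0.13, adjusted p = 0.26) and 0.59 without pigs 4 and 7.

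CELA1 and SERPINA1, a protease and an inhibitor of proteases, had r = 0.90 (rho = 0.89, exact p = 0.11, adjusted p = 0.24) and 0.47 without pigs 4 and 7. CELA1 measured 9.26, 8.47 and 9.29 in pigs 1 to 3 and 6.47, 10.31, 9.61 and 6.84 in pigs 4 to 7. SLC15A1, the peptide transporter of enterocytes, measured 8.64 and 8.61 in pigs 5 and 6, 5.64 and 5.87 in pigs 4 and 7 and 5.73 to 6.74 in pigs 1 to 3. CELA1, SERPINA1 and SLC15A1 were low in pigs 4 and 7, as were GAST and MUC6. Their lists as a whole differed less. The median deviation in pigs 4 and 7 was -0.13 and -0.10 for the pancreatic acinar list and -0.04 and -0.05 for the intestinal list. MUC2 of the intestinal list was highest of its set in pig 4, at 6.30.

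Some lists had a median within-set SD near that of all named genes, 0.18. The median within-set SD was 0.14 in the respiratory chain and ATP synthase list (24 genes), 0.19 in the cytosolic ribosome list (36 genes) and 0.20 in the list of protein folding in the endoplasmic reticulum (21 genes), and none of their genes reached 0.5. The ribosomal genes still had a common direction, at median deviations of -0.19 to 0.20. Of 36, 34 were above the set mean in pig 5 and 32 in pig 6, against 52% and 53.7% of all named genes. In pig 4 it was 1 and in pig 7 none, against 45% and 46.2%. Among the 3637 genes of highest mean, 1 in 3 of all, the steadiest were SMIM19 (within-set SD 0.02), SEC31A, SSR2, HMGB1, COPA, KLHL2, LSM3, RETREG3 and ITM2B (each 0.03) and DYNC1H1 (0.04). SEC31A and COPA are coat subunits of the vesicles between the endoplasmic reticulum and the Golgi, and SSR2 acts where proteins enter the endoplasmic reticulum. COPA measured 9.95, 9.97 and 9.95 in pigs 1 to 3 and 10.73, 10.80, 10.73 and 10.72 in pigs 4 to 7.

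Without pigs 4 and 7 the variation had another face. The first component of the other 5 pigs held 52.5% of their within-set variance and set pig 1 (loading 0.81) against pigs 2 and 3 (-0.48 and -0.33). The following genes were named after their values were seen, from the 21 with a within-set SD of 1 or more in these 5 pigs. UQCR10 (2.39) and LCN15 (2.12), a lipocalin, came first, and LCN15 was at 8.81 in pig 3 and at 4.46 and 4.20 in pigs 1 and 2. CHM was at 3.62 in pig 6 and at 7.31, 7.10 and 7.49 in the other pigs of its set.

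High in pig 1 within the first set were S100G (6.50, 3.56 and 3.02), which binds calcium, the carbonic anhydrase CA3 (6.10, 2.63 and 3.01), OTOP3 (7.24, 4.38 and 4.88), a proton channel, and the growth factor EGF (6.10, 3.74 and 4.36). Low in pig 1 were GHRL, MMP9 (4.73, 6.88 and 7.45), a protease of inflamed tissue, FAM3B (6.45, 9.01 and 8.84) and ADAMDEC1 (4.36, 6.58 and 7.08), a protease of gut macrophages. With 3 pigs in the set, these values describe single animals.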

How the data were processed

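Total RNA of each PYL sample was labelled with biotin and hybridized on porcine whole-transcript arrays, and the methods name a Robust Multichip Analysis. The deposited values are linear intensities made by the authors from the scans, 1 per transcript row and array, and the sources used here do not say how the 2 array sets came to differ. They were log2-transformed with no further normalization or pseudocount. Symbols came from the platform annotation (11982 rows with 1 symbol, 373 with several, 15105 with none), and rows with several or none were not named. Some rows (1239) share all 7 values with another row, among them both rows of GAST.

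Named were the 4 markers, the 30 genes of highest mean, the 20 of highest within-set SD, the 10 steadiest of the third of highest mean, the 8 most alike and 4 most opposed of each marker, per list the 4 of highest mean and 2 of highest within-set SD, and the genes of the pairs. The members, the 33 lists and the pairs were chosen with earlier results of these data known. Listed genes without a named row, MUC5AC and TFF2 among them, are not analysed here. With 7 arrays and 1 group there is no test across genes, and the number of arrays limits the precision. Pearson r and Spearman rho of deviations were tested by exact permutation within sets (Python 3.11.15, numpy 2.4.6), checked on simulated data. Alternatives were other scalings, row choices and filters, no subtraction of set means, single sets, and leaving out pigs. The pigs are called unrelated, and nothing further on their litters is stated. Each p is the share of within-set arrangements whose correlation was at least as large in size as the observed, and it covers only these samples.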

Additional observations from a re-analysis of the deposited data

Results flagged for a closer look

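Of 254 named genes, 2 (0.787%) had a pig whose deviation lay far from those of the other 6. The mark was a gap, as a share of the whole range, above Dixon's critical value for 7 samples. For 7 independent values chance marks about 1 group in 20. Deviations centered within sets are not independent and the genes covary, so the share cannot be compared with that rate. PRPH, an intermediate filament of peripheral neurons, stood out in pig 4 with a level of 8.26, at a gap of 0.592 of the range. ALAS2, an enzyme of haem synthesis in red cell precursors, stood out in pig 5 with 5.73, at a gap of 0.591.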

How the results depend on the processing

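The mean levels of GAST, SST, PIGR and CLDN7 moved by less than their SD under all alternatives run. The 201 genes with a within-set SD of 1 or more became 516 without subtraction of the set means, 32 in pigs 1 to 3 alone, 361 in pigs 4 to 7 alone and 21 without pigs 4 and 7, and 145 to 271 when each pig was left out in turn. The share of the first component, 72.3%, was 85.2% in pigs 4 to 7 alone and 52.5% without pigs 4 and 7, and 67.8 to 80.8% with a single pig left out. The 5 pairs past the threshold became 6 when the rows of each gene were averaged, where PIGR and CD79A passed (r = 0.92), and 12 without subtraction. They became 0 by Spearman rho, where these 5 pairs already had a rho of 1.00 and could reach no p below 0.014 (exact permutation). They also became 0 in pigs 4 to 7 alone, without pigs 4 and 7 and with any pig left out. There the smallest possible p was 0.021 to 0.083 and adjustment over 28 pairs leaves little room. Correlations over pigs 1 to 3 alone were not run. Without pigs 4 and 7, 17 of 28 pairs kept their sign. The others turned to -0.48 (GAST and PIGR), -0.44 (GAST and CLDN7), -0.39 (SST and PIGR), -0.41 (SST and CLDN7), -0.75 (PIGR and LYZ), -0.26 (PIGR and CD79A), -0.57 (CLDN7 and EPCAM), -0.97 (CLDN7 and CLDN2), -0.22 (CLDN7 and CLDN18), -0.51 (PGC and PGA5) and -0.79 (MEIS2 and SOX21). EPCAM, CLDN18 and PGA5 varied little in pigs 1 to 3, so the turned sign of their pairs says little. MEIS2 and SOX21 were also at -0.24 without subtraction and between -0.39 and 0.48 with a single pig left out, the lowest without pig 7. The cause was not tested. No paired analysis was possible because a single group of samples was analysed.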
